A study of Drosophila melanogaster with 32 samples.

Results

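In flies, a microRNA (miRNA) hairpin is cut into a duplex of 2 strands, the 5p arm and the 3p arm, and an Argonaute protein keeps 1 of them. The data described here ask which arm Ago2 held and which arm Ago1 held in male *Drosophila melanogaster*. They are the 16 male libraries of small RNAs precipitated with antisera to Ago2 (8 libraries) and to Ago1 (8 libraries), of 32 libraries in the series. The features are the rows of mature miRNA strands that averaged at least 5 reads over the 16 male libraries, 194 of 209 miRNA rows in the table of reads of up to 25 nt. Of the 65 hairpins with a row for each arm, 56 had that mean on both arms and also gave a log2 ratio of the 2 arms in every library.

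Lysates came from 40 whole mated males each. The flies were wDah;dfoxo{delta}94, which lack the transcription factor gene foxo and are called dFOXO-null, or wDah, the white-eyed outbred Dahomey background of both. They were collected at 35 d or at 5 d of age, and each of the 4 combinations of genotype and age gave 2 libraries per precipitate, 1 from each of 2 experiments. The Ago2 and Ago1 libraries that share genotype, age and experiment make 8 matched pairs. Both proteins were the endogenous ones, and the RNA came from all tissues of the fly, so fewer cells that hold a strand and less of it per cell cannot be told apart.

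Ago1 carries most miRNAs of the fly and Ago2 carries the small interfering RNAs made from viruses and transposons by Dicer-2. The strand that an Argonaute keeps from a duplex is called the guide, and the other, which is usually discarded, is the passenger or star strand. In flies, Ago2 is known to take part of the star strands, preferring duplexes that are paired in the centre and strands that begin with C, while Ago1 prefers a U at the first base and mismatches in the centre. Guide and star are used below only in this general sense. In the data, the less abundant arm of a hairpin is the arm with fewer reads summed over the 8 female Ago1 libraries, which take no part in the male comparison.

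A choice of strands that the results below turn on is printed here with the opposite arms of their hairpins, so that their first bases and seeds can be compared. The seed, bases 2 to 8, which pairs with target mRNAs, is in capitals. The sequences are the RefSeq mature strands of Release 6 of the fly genome (dm6), and all 209 miRNA rows matched 1 such strand.
miR-2a-2-5p: cCUCAUCAagugguugugaua
miR-2a-1-5p: cUCUCAAAgugguugugaaaug
miR-2a-3p: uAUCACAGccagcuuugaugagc
miR-998-5p: aCUGAAUUcucgugggucugca
miR-998-3p: uAGCACCAugagauucagcuc
miR-92a-5p: aGGACGGGaaggugucaacguu
miR-92a-3p: cAUUGCACuugucccggccuau
miR-100-3p: cAAGACCGgcauuaugggaguc
miR-100-5p: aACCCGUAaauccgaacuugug
let-7-3p: cUAUACAAugugcuagcuuucu
let-7-5p: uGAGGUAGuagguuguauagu
miR-33-3p: cAAUACAAcuucagugcaagcu
miR-33-5p: gUGCAUUGuagucgcauuguc
miR-996-5p: gCGAACAUggaucuagugcacg
miR-996-3p: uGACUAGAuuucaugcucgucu
bantam-5p: cCGGUUUUcgauuugguuugacu
bantam-3p: uGAGAUCAuuuugaaagcugauu
miR-284-3p: gUCAGCAAcuugauuccagca
miR-284-5p: cCUGGAAUuaaguugacuguguagcc

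In that annotation, miR-2a-2-5p lies at chr2L:19569534-19569554 and miR-2a-1-5p at chr2L:19569945-19569966, both on the minus strand in an intron of spi, which encodes the EGF ligand Spitz. miR-998-5p lies at chr3R:21621977-21621998 on the minus strand in an intron of the cell cycle regulator gene E2f1. miR-92a-5p lies at chr3R:25646522-25646543 on the plus strand in an intron of jigr1. miR-100-3p, at chr2L:18471484-18471505, and let-7-3p, at chr2L:18472082-18472103, lie on the plus strand in an exon of the non-coding RNA let7C, the shared transcript of let-7, miR-100 and miR-125. miR-33-3p lies at chr3L:19798025-19798046 on the plus strand in an intron of SREBP, a regulator of lipid synthesis. miR-996-5p (chr3R:29217202-29217223) and bantam-5p (chr3L:642222-642244) lie on the plus strand in exons of the non-coding RNAs CR31044 and CR43334. Of these 9 chosen strands 6 begin with C, and their seeds differ from each other and from those of the opposite arms.

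The male Ago2 libraries held 46057 to 530739 miRNA reads and the male Ago1 libraries 1778475 to 5377945. For a strand with 0 reads, the upper limit, set at 3 reads, was 0.00651% of miRNA reads in the shallowest Ago2 library and 0.000169% in the shallowest Ago1 library. Such limits cover counting error only. Transposon reads, among the RNAs Ago2 is known for, were 3.99% to 25.2% of mapped reads in Ago2 and 0.155% to 0.599% in Ago1, so the precipitates did not overlap in that share. The 10 most abundant miRNA strands summed to 78.2% of miRNA reads in Ago2 and 81.3% in Ago1 on average. How much of the RNA in the Ago2 libraries was carried over without being bound by Ago2 was not tested.

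The first comparison was the share of miRNA reads that each strand took. Star strands stood out: 53 of 194 miRNAs rose in Ago2 (27.3% of the miRNA rows; 46.6% of the 266 rows of the fit, which include transposons), and 34 of these 53 were the less abundant arm of a 2-arm hairpin. Among the 56 less abundant arms 34 rose, with a median log2 ratio of Ago2 over Ago1 of 1.33, and among the 56 more abundant arms 5 rose (13 with the replicate block, which pairs the libraries), with a median of 0.15. The median of all 194 was 0.29. By the quasi-likelihood F test of edgeR with Benjamini-Hochberg adjustment, 0 miRNAs fell (0% of the rows), 1 fell at an unadjusted p under 0.05, and DESeq2 called 117 lower and 20 higher.

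That split depends on the scaling, since a share of miRNA reads sets the abundant strands close to 0. TMM, median-of-ratios and DESeq2 factors were computed over all 266 rows of the fit, transposons included. By share of miRNA reads, 124 of those rows were higher in Ago2 (46.6%). With TMM factors 21 miRNAs rose and 81 fell, and the median of all miRNAs was -0.91. With median-of-ratios factors 19 rose and 114 fell, at a median of -1.28, and scaled to all mapped reads 47 rose and 3 fell, at a median of 0.13. With the replicate block 76 rose and 3 fell. Under TMM, 14 of the less abundant arms rose and 8 fell, while 0 of the more abundant arms rose and 35 fell. The order of the 2 arm classes was thus the same under each of these scalings, while the direction of strands near the median was not.

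The strand with the largest ratio was miR-2a-2-5p, the star strand of a hairpin whose other arm belongs to a family that represses pro-apoptotic genes. It took 0.043% to 0.141% of miRNA reads in Ago2 (median 0.0691%), against 0.000112% to 0.000872% in Ago1 (median 0.000323%). The log2 ratio was 7.71 ± 0.50 (SE, edgeR, adjusted p = 1.94e-07), a 209-fold difference. The 2 ranges lay far apart, with 21 to 274 reads per library in Ago2 and 2 to 35 in the much deeper Ago1 libraries. Its opposite strand miR-2a-3p, which is shared by the miR-2a-1 and miR-2a-2 hairpins, took a median of 0.183% in Ago2 and 0.203% in Ago1 (log2 ratio 0.02 ± 0.24, adjusted p = 0.984). miR-2a-1-5p, from the neighbouring hairpin, had a median of 0.0115% in Ago2 and 0.000523% in Ago1 (4.47 ± 0.54, adjusted p = 7.43e-06), again with no overlap.

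The other strands with the 10 highest ratios were miR-998-5p (7.18), miR-92a-5p (6.51), miR-184-5p (6.14), miR-100-3p (5.89), miR-988-5p (5.80), let-7-3p (5.59), miR-33-3p (3.59) and miR-996-5p (3.28). Each of these was higher in Ago2 in 8 of 8 matched pairs, which was a condition of their choice. Their 8 Ago2 and 8 Ago1 shares did not overlap. Over all miRNAs, 21 of 194 did not overlap (10.8%), and 21 of these 21 were higher in Ago2. These 10 strands also rose under TMM, median-of-ratios and mapped-read scaling. The ratios rest on few reads in Ago1 for miR-92a-5p (0 to 11 per library), miR-998-5p (1 to 13) and miR-100-3p (0 to 19). miR-92a-5p and miR-998-5p had 26 and 35 reads in all Ago1 libraries, against 103 and 257 in Ago2. These 2 strands met the filter of 5 reads on average only through the Ago2 libraries, where they are high.

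The most abundant strands were nearly level between the precipitates on this scale. miR-276a-3p, from a miRNA known for its part in olfactory memory, took a median of 18.5% in Ago2 and 15.9% in Ago1, and miR-1-3p, the muscle miRNA, 12.4% in Ago2 and 14% in Ago1. Of the 10 strands with the highest mean share, 0 passed the test, with log2 ratios from -0.60 for miR-14-3p to 0.16 for miR-34-5p. With the replicate block 1 of them passed, miR-1-3p, at -0.26 ± 0.083 (adjusted p = 0.0161 by edgeR), and it was lower in Ago2 in 8 of 8 pairs. Under TMM scaling miR-276a-3p stood at -1.04 and bantam-3p at -1.12. The sign of these ratios thus depends on the scaling. The 3p arms of miR-276a and miR-276b differ by 1 base and their 5p arms are identical, and the authors' alignment let a read count at both rows.

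The ratio of the 2 arms of 1 hairpin within a library does not depend on any scaling between libraries, and it was the second comparison. It was tested as the interaction of arm and precipitate in an edgeR fit with a term for each library. Of 56 hairpins 30 changed (53.6%), and in 29 of the 30 (51.8% of all) the less abundant arm was relatively more frequent in Ago2. A stricter filter required a mean of at least 5 reads on both arms in both precipitates. Under it only 22 of the 30 could be tested, and all 22 changed in the same direction. miR-998 and miR-92a, whose 5p arms averaged under 5 reads in Ago1, were not among the 22. The median shift over all 56 hairpins was 1.38 on the log2 scale, and 45 of 56 shifts were above 0. The arm shares of 13 hairpins did not overlap between the 8 Ago2 and the 8 Ago1 libraries (23.2%). In 28 of the 29 hairpins the less abundant arm had also risen as a share of miRNA reads, while the more abundant arm rose in 2. Which of the 2 arms moved depends on that scale, unlike the shift itself.

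**Figure D1:**
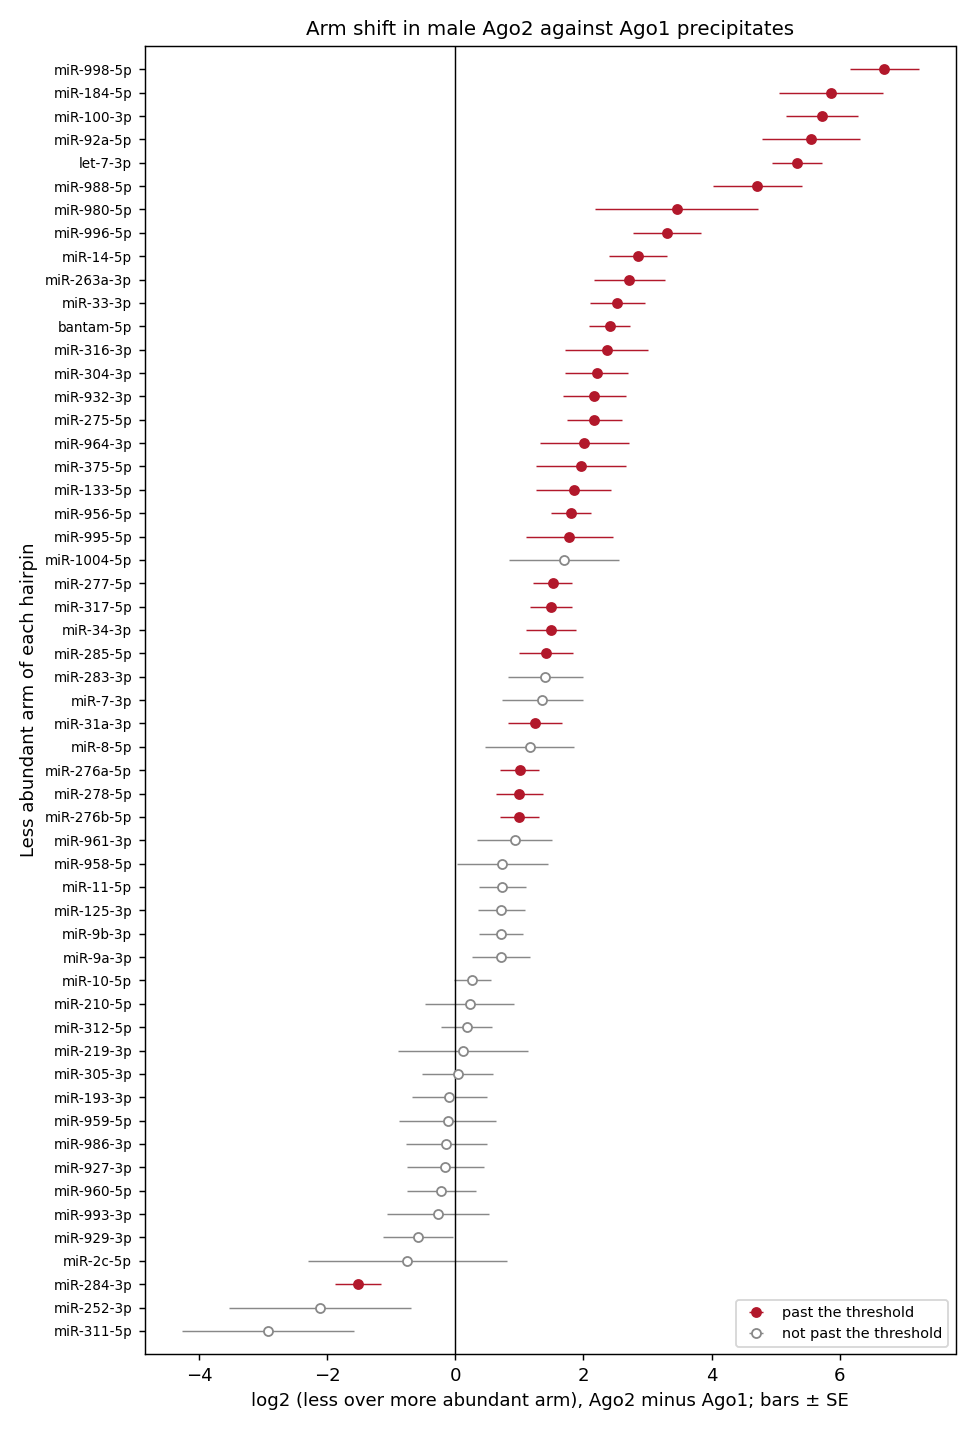
Shift of the log2 ratio of the less to the more abundant arm, Ago2 minus Ago1, for each hairpin (x axis, log2, bars ± SE), named by its less abundant arm. Filled points passed an adjusted p of 0.05. All filled points but that of miR-284-3p lie right of 0. miR-87, whose SE could not be estimated, is left out.

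In miR-998 the leading arm differed between the precipitates. miR-998-5p made up 33.3% to 88.2% of the reads of its hairpin in Ago2 (median 60.3%), against 0.606% to 2.69% in Ago1 (median 1.49%). The shift was 6.70 ± 0.54 on the log2 scale (adjusted p = 1.36e-07), a 104-fold change of the ratio. The lowest Ago2 library, dFOXO-null at 35 d in experiment 1, was still far above the highest Ago1 library, and the hairpin had 257 and 163 reads on its 5p and 3p arms in Ago2, against 35 and 2239 in Ago1.

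miR-988 behaved likewise. miR-988-5p made up 40.2% to 85.3% of its hairpin in Ago2 (median 77.4%) and 1.37% to 21.4% in Ago1 (median 11.6%), a shift of 4.71 ± 0.69 (adjusted p = 6.63e-05). It was over 50% of the hairpin in 7 of 8 Ago2 libraries and in 0 of 8 Ago1 libraries. Of miR-996, which shares its guide seed with miR-279, a repressor of neuronal fate in the olfactory system, the 5p arm made up 35.8% to 82.8% in Ago2 (median 51.2%) and 7.88% to 18.9% in Ago1 (median 11.3%). Its shift was 3.31 ± 0.53 (adjusted p = 0.000128).

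In miR-92a, whose guide has the seed of the miR-310 cluster, the 5p arm made up 25% to 67.7% of the hairpin in Ago2 (median 39.3%) and 0% to 7.05% in Ago1 (median 1.57%). The shift was 5.55 ± 0.77 (adjusted p = 3.94e-05), and it was 6.54 without the dFOXO-null Ago1 library of experiment 2 at 35 d and 6.44 without that at 5 d. In let-7 and miR-100 the less abundant arm is the 3p arm. let-7-3p, the star strand of the developmental timing miRNA let-7, made up 14.5% to 46.8% of its hairpin in Ago2 (median 24.4%) and 0.498% to 1.68% in Ago1 (median 0.835%), a shift of 5.33 ± 0.39 (adjusted p = 8.99e-08). miR-100-3p, from the same primary transcript, made up 4.03% to 18% in Ago2 (median 11.4%) and 0% to 0.693% in Ago1 (median 0.217%). Its shift was 5.73 ± 0.56 (adjusted p = 1.2e-06), and 6.41 without the wDah Ago1 library of experiment 2 at 5 d.

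In let-7, miR-100, miR-184, miR-14 and bantam the less abundant arm stayed under 50% of the hairpin in all 8 Ago2 libraries, while miR-92a-5p was over 50% in 3 of 8. miR-184-5p made up 0.0602% to 3.08% of its hairpin in Ago2 (median 0.475%) and 0.00358% to 0.0224% in Ago1 (median 0.00706%). Its shift of 5.87 ± 0.81 (adjusted p = 3.94e-05) was 5.05 without the wDah Ago2 library of experiment 1 at 35 d and 6.48 without that of experiment 2 at 35 d. miR-14-5p, from a miRNA that acts in insulin-producing neurons and fat metabolism, made up 1.25% to 7.26% in Ago2 (median 3.1%) and 0.155% to 1.08% in Ago1 (median 0.423%). For bantam, which promotes growth and blocks apoptosis, the 5p arm made up 1.34% to 4.17% in Ago2 (median 2.52%) and 0.288% to 0.714% in Ago1 (median 0.425%). The shifts were 2.85 ± 0.45 for miR-14 and 2.41 ± 0.32 for bantam (adjusted p = 0.000123 and 3.94e-05), and neither hairpin's ranges overlapped.

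**Figure D2:**
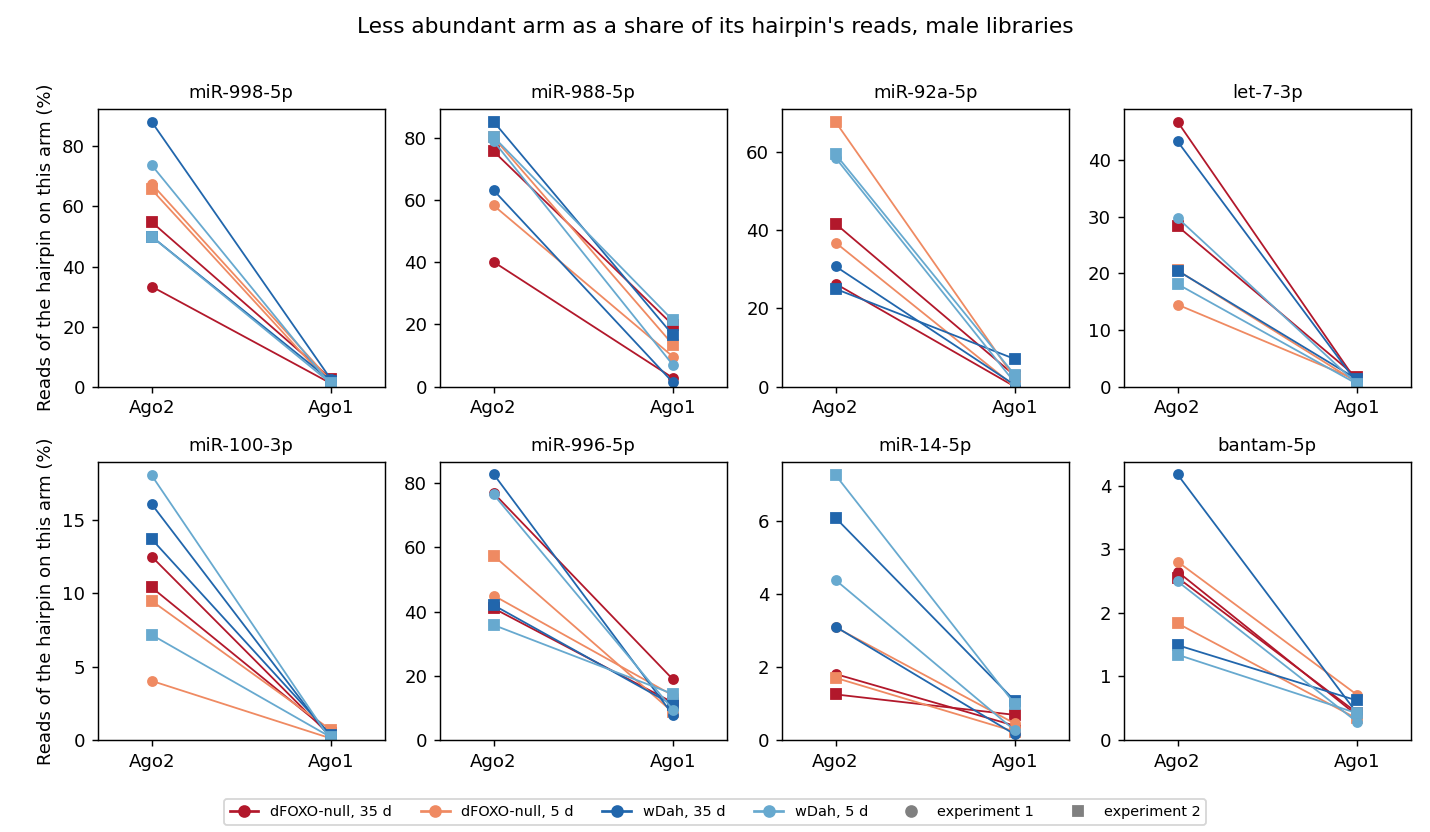
Share of a hairpin's reads on its less abundant arm (y axis, %, own scale in each panel) in the 8 Ago2 libraries and the 8 Ago1 libraries, with lines joining libraries of 1 genotype, age and experiment. In all 8 panels every Ago2 library lies above every Ago1 library.

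miR-33-3p made up 1.11% to 7.03% of its hairpin in Ago2 (median 3.97%) and 0.274% to 1.31% in Ago1 (median 0.67%). The shift was 2.53 ± 0.43 (adjusted p = 0.000215). Here both arms had risen as shares of miRNA reads, miR-33-3p by 3.59 and miR-33-5p by 1.04 ± 0.22 on the log2 scale (adjusted p = 0.00107), while under TMM miR-33-5p stood at -0.22. The ranges of miR-33-3p within its hairpin overlapped slightly. The Ago2 library was higher in 8 of 8 pairs, which was a condition of its choice.

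Of the 12 hairpins with the largest shifts, 2 lost their calls when single libraries were left out. miR-263a-3p, from a miRNA that protects sense organ cells from apoptosis, had 27 reads in all Ago2 libraries and 65 in all Ago1 libraries. Its shift was 2.72 ± 0.55 (adjusted p = 0.000854), but 0.96 without the dFOXO-null Ago2 library of experiment 2 at 35 d (adjusted p = 1) and 0.87 without the wDah Ago2 library of experiment 2 at 5 d (adjusted p = 0.994). miR-980 had 37 reads on its 5p arm and 14 on its 3p arm in Ago2. Its shift of 3.45 ± 1.27 (adjusted p = 0.0338) was 1.64 without the dFOXO-null Ago2 library of experiment 2 at 35 d (adjusted p = 1), and it missed the threshold without any 1 of 8 libraries.

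The remaining shifts among the hairpins of the abundant miRNAs were smaller. miR-34-3p, from a miRNA that protects the ageing fly brain, made up 1.57% to 10.2% of its hairpin in Ago2 (median 4.07%) and 0.5% to 4.36% in Ago1 (median 1.3%), a shift of 1.49 ± 0.39 (adjusted p = 0.00515). miR-277-5p, from a regulator of branched-chain amino acid metabolism, made up 0.399% to 1.43% in Ago2 (median 0.932%) and 0.198% to 0.445% in Ago1 (median 0.297%), a shift of 1.52 ± 0.30 (adjusted p = 0.000779). The shift of miR-956 was 1.80 ± 0.31 (adjusted p = 0.000215), with a median of 0.158% for its 5p arm in Ago2 and 0.0421% in Ago1. These Ago2 libraries were higher than their matched Ago1 libraries in 8 of 8 pairs for each of the 3 hairpins.

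miR-276a and miR-276b had shifts of 1.00 ± 0.30 each (adjusted p = 0.0131 and 0.0132), and their 5p rows hold the same reads. For miR-276a the 5p arm made up 0.0819% to 0.271% in Ago2 (median 0.117%) and 0.04% to 0.0968% in Ago1 (median 0.0742%), with overlapping ranges. miR-8, which acts on growth and insulin signalling in the fat body, had a shift of 1.16 ± 0.70 that did not pass the test (adjusted p = 0.173), while with the replicate block it was 1.16 ± 0.23 and passed (adjusted p = 0.000146). Its 5p arm spanned 2.51% to 31% in Ago2 (median 8.94%) and 1.64% to 13.9% in Ago1 (median 3.79%).

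Only miR-284 shifted toward the more abundant arm past the threshold. Its 3p arm made up 9.52% to 35.2% of the hairpin in Ago2 (median 20.4%), against 34.6% to 56.1% in Ago1 (median 42.8%), a shift of -1.53 ± 0.36 (adjusted p = 0.00226). The 5p arm, which begins with C, rose as a share of miRNA reads by 1.53 ± 0.30 on the log2 scale (adjusted p = 0.000586). The annotated 5p strand is 26 nt long, longer than the longest reads counted, so its full-length reads are missing from these values. Whether their loss shaped the shift was not tested. In a few hairpins the arm defined as less abundant in female Ago1 was the larger arm in most male Ago1 libraries too, as in miR-285, where the 5p arm made up a median of 80.9% in Ago2 and 58.9% in Ago1. miR-305, which has nearly equal arms, had a median of 56.8% for its 3p arm in Ago2 and 51% in Ago1 and a shift of 0.03 ± 0.55 (adjusted p = 0.971).

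Over all 56 hairpins, the less abundant arm was over 50% of the reads in at least 5 of 8 libraries for 9 hairpins in Ago2 and for 4 in Ago1. Those of the 9 that changed and were led by the other arm in most Ago1 libraries were miR-998, miR-988, miR-980 and miR-316. miR-316-3p made up 48.8% to 85.7% in Ago2 (median 75%) and 16% to 61.2% in Ago1 (median 29.1%), a shift of 2.36 ± 0.65 (adjusted p = 0.00727).

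Summed over the 56 hairpins, less abundant arms made up 3.09% ± 1.61 of the reads in the Ago2 libraries and 1.34% ± 0.549 in the Ago1 libraries (SD, n = 8 each). The difference was 1.75 percentage points (two-sided exact permutation test over 12870 arrangements, p = 0.00295). In Ago2 the libraries ran from 1.65% to 6.52% (median 2.61%), and in Ago1 from 0.765% to 2.23% (median 1.19%), so the ranges overlapped. The Ago2 library was higher in 8 of 8 pairs, and the exact sign-flip test over the pairs gave p = 0.00781, the smallest it can give. In reads of exactly 21 nt the shares were 8.03% ± 5.27 in Ago2 and 4.93% ± 2.38 in Ago1 (SD, n = 8 each), and the exact permutation test gave p = 0.137.

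The 2 experiments differed in this sum. The Ago2 libraries had 2.92% to 6.52% in experiment 1 and 1.65% to 2.31% in experiment 2, and the Ago1 libraries 1.34% to 2.23% in experiment 1 and 0.765% to 1.04% in experiment 2. Ago2 exceeded Ago1 by 2.46 points in experiment 1 and by 1.03 points in experiment 2. Each gave p = 0.0286 by the exact permutation test, which 4 against 4 libraries cannot go below. Experiment 2 also had deeper libraries, with 121545 to 530739 miRNA reads against 46057 to 197889 in Ago2, and in Ago1 3451250 to 5377945 against 1778475 to 2608074 in experiment 1. The part of depth in the difference between experiments was not tested. Single hairpins showed the same order, with shifts in experiment 1 and experiment 2 of 5.88 and 4.80 for let-7, 7.32 and 6.39 for miR-998, and 2.82 and 2.0 for bantam.

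**Figure D3:**
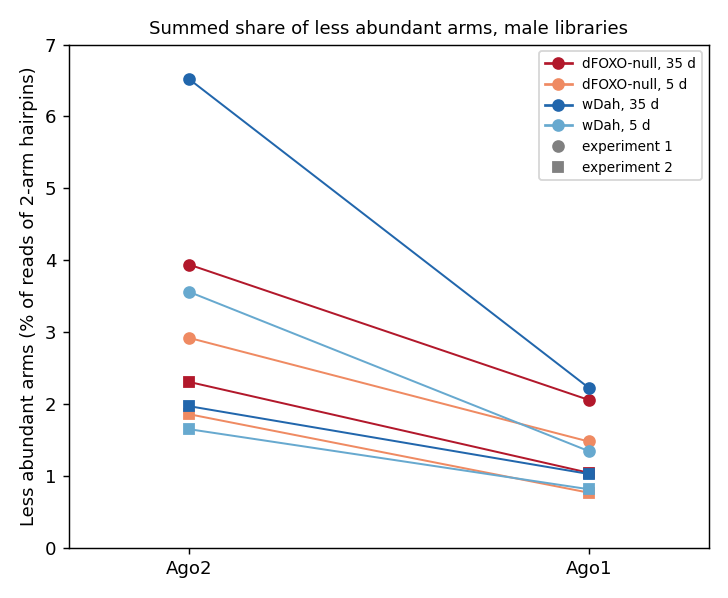
Reads of less abundant arms as a percentage of all reads of the 56 hairpins (y axis) in the 8 Ago2 and 8 Ago1 libraries, with lines joining matched libraries. Each line falls toward Ago1, and the wDah Ago2 library of experiment 1 at 35 d stands highest at 6.52%.

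First bases differed between the strands that rose and those that did not. Of the strands that begin with C 24 of 35 rose (median log2 ratio 1.33), with G 6 of 11 (1.12), with A 11 of 37 (0.37) and with U 12 of 111 (0.14), against 53 of 194 overall (27.3%). With the replicate block 25 of the 111 with U rose and 3 fell. First base and arm class overlap, because 43 of the 56 more abundant arms begin with U. Within the less abundant arms, 17 of 23 with C rose (median 1.60), 9 of 14 with A (2.0), 5 of 7 with G (2.0) and 3 of 12 with U (0.58). Within the more abundant arms, 2 of 7 with C and 2 of 43 with U rose. These counts are a description and carry no test. Under TMM scaling 12 of the strands with C rose and 7 fell, while 3 of those with U rose and 55 fell.

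Pairing in the centre of the duplex was read from the minimum free energy fold of each RefSeq hairpin, at positions 9 and 10 counted from the 5′ end of a strand. Of the 29 less abundant arms with both positions paired, 23 rose as a share of miRNA reads (median log2 ratio 2.03). Of the 22 with 1 position paired 10 rose (0.92), and of the 5 with 0 paired 1 rose (-0.13). The arm ratio, free of scaling, ran the same way. It shifted toward the less abundant arm in 22 of 29 hairpins with both positions paired (median shift 1.85), in 7 of 22 with 1 paired (0.86) and in 0 of 5 with 0 paired (-0.27), against 29 of 56 overall. The same positions counted on the more abundant arm gave 16 of 33, 9 of 16 and 4 of 7 hairpins. This description was chosen after the male values had been seen. let-7 and miR-100, with 1 of the 2 positions of the star strand paired, had shifts over 5 all the same.

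**Figure D4:**
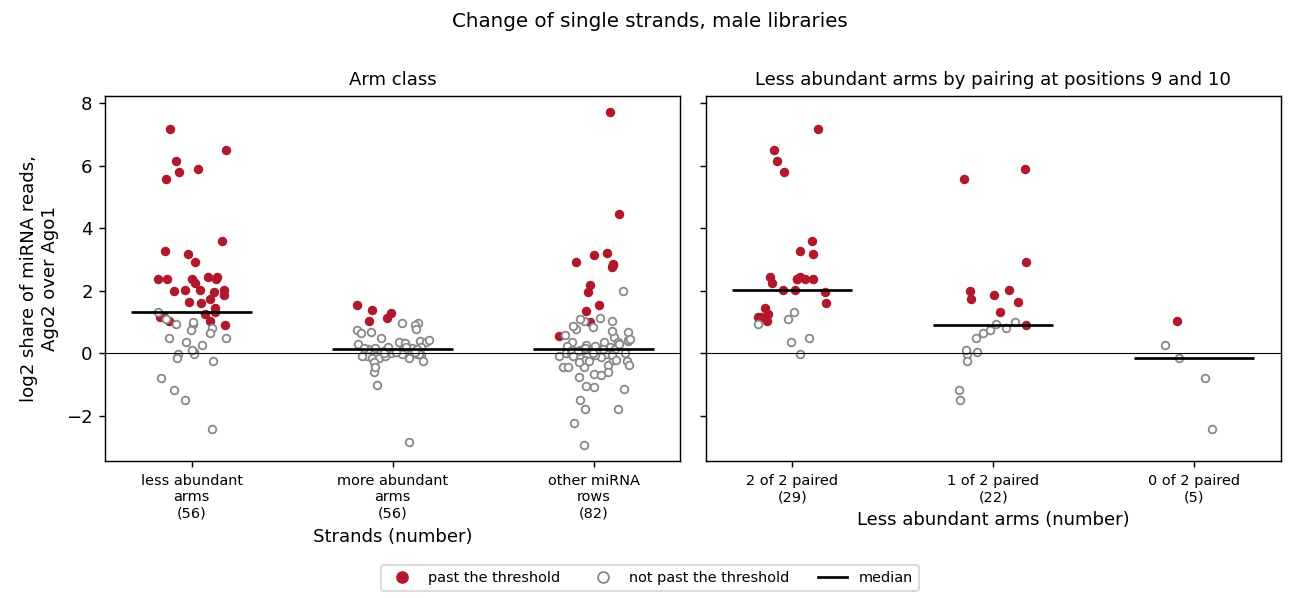
Log2 ratio of the share of miRNA reads, Ago2 over Ago1, of each strand (y axis) by arm class and, for less abundant arms, by pairing at positions 9 and 10 in the predicted hairpin (numbers of strands in brackets). Lines are medians, at 1.33, 0.15 and 0.15 for the arm classes and at 2.03, 0.92 and -0.13 from both to 0 positions paired.

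Families and clusters are given next as lists of strands. In the let-7 complex 3 of 6 strands rose, the 3p arms let-7-3p, miR-100-3p and miR-125-3p (1.33 ± 0.38, adjusted p = 0.00918), while the ratio of let-7-5p was 0.06 ± 0.25 and that of miR-100-5p was 0.01 ± 0.31. The ratio of miR-125-5p was 0.51 (adjusted p = 0.449 by edgeR), and with the replicate block it was 0.58 ± 0.17 and passed (adjusted p = 0.00924). The arm shift of miR-125 was 0.71 ± 0.37 and did not pass (adjusted p = 0.11 by edgeR). With the replicate block it was 0.72 ± 0.26 and passed (adjusted p = 0.0166). Under TMM scaling 2 of the 6 rose and 2 fell. In the miR-2 and miR-13 family 4 of 14 rose, all of them 5p strands, among them miR-2b-2-5p (1.37 ± 0.24, adjusted p = 0.000246) and miR-11-5p (0.92 ± 0.30, adjusted p = 0.0199), whose call was lost without the wDah Ago2 library of experiment 1 at 35 d (0.66), the dFOXO-null Ago2 library of experiment 1 at 35 d (0.81) or the dFOXO-null Ago1 library of experiment 2 at 5 d (0.86). The 3p strands of that family, which share 1 seed, had ratios from -0.08 for miR-2c-3p to 0.28 for miR-6-3p, and under TMM 5 of the 14 fell.

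Of the muscle miRNAs 1 of 3 strands rose, miR-133-5p at 2.03 ± 0.47 (adjusted p = 0.00213), while miR-1-3p had -0.26 ± 0.14 (adjusted p = 0.168) and fell with the replicate block. Of the neural miRNAs 1 of 6 rose, miR-7-3p, the star strand of a regulator of photoreceptor differentiation, at 1.74 ± 0.58 (adjusted p = 0.0237). It rests on 0 to 3 reads per Ago2 library, had 0.027 without the wDah library of experiment 1 at 35 d, and missed the threshold without any 1 of 4 Ago2 libraries. The neuronal miR-124-3p had 0.36 ± 0.39 (adjusted p = 0.542). In the miR-310 cluster with miR-92, 1 of 8 rose, miR-92a-5p. Of the mirtrons, hairpins released by splicing, 1 of 11 rose, miR-1004-5p (2.0 ± 0.36, adjusted p = 0.000322), and the median was -0.08. Under TMM scaling these counts were 0 of 3, 0 of 6, 1 of 8 and 0 of 11, and 2, 1, 3 and 7 strands fell. With the replicate block 1 of 3 muscle strands, 4 of 6 neural strands, 4 of 8 strands of the miR-310 cluster with miR-92 and 2 of 11 mirtron strands rose.

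Of the clusters expressed in testis 6 of 18 strands rose, of which 3 lost their calls without single Ago2 libraries: miR-961-3p (-0.29 without the wDah library of experiment 2 at 35 d), miR-964-3p (0.37 without the dFOXO-null library of experiment 1 at 35 d) and miR-973-5p (0.90 without the wDah library of experiment 2 at 5 d). The highest was miR-991-3p, at a median of 0.0332% in Ago2 and 0.00448% in Ago1 (3.21 ± 0.46, adjusted p = 3.84e-05). miR-983-5p had medians of 0.0623% in Ago2 and 0.0239% in Ago1 (1.56 ± 0.33, adjusted p = 0.00104), and the lowest ratio was that of miR-982-5p, at -1.48 ± 1.16 (adjusted p = 0.403). The share of these lists that rose ran from 9.09% to 50%, around the 27.3% of all miRNAs, and under TMM 1 of the testis strands rose and 4 fell. Of the 2-arm hairpins of these clusters, miR-964 shifted toward its 3p arm by 2.01 ± 0.69 (adjusted p = 0.0246, 8 of 8 pairs). Its 3p arm made up 0% to 19% of the hairpin in Ago2 (median 6.15%) and 0.406% to 3.06% in Ago1 (median 1.52%), with 17 reads in all Ago2 libraries, and the shift was 0.45 without the dFOXO-null Ago2 library of experiment 1 at 35 d (adjusted p = 0.958). miR-959, miR-960 and miR-961 had shifts of -0.12 ± 0.76, -0.22 ± 0.54 and 0.92 ± 0.59 that did not pass the test.

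The third comparison asked whether sorting changed with age or with loss of foxo. Neither did at the threshold: for the difference between 35 d and 5 d, and for that between dFOXO-null and wDah, 0 of 194 miRNAs and 0 of 56 hairpins passed (0% of all rows in each edgeR fit). At an unadjusted p under 0.05 there were 3 miRNAs and 2 hairpins for age, and 3 miRNAs and 0 hairpins for genotype. Taken 1 combination at a time, 6 hairpins passed in dFOXO-null at 35 d (10.7%), 9 in dFOXO-null at 5 d (16.1%), 14 in wDah at 35 d (25%) and 13 in wDah at 5 d (23.2%), each from 2 against 2 libraries. All of these but 1 hairpin of wDah at 35 d moved toward the less abundant arm, and the median shift over the 56 hairpins was 1.29, 1.37, 1.34 and 1.32 in that order. These counts do not show that the genotypes differ, since the difference itself did not pass.

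For single hairpins the differences had wide errors. The shift of let-7 was 5.54 and 4.45 in dFOXO-null at 35 d and 5 d, and 5.46 and 5.89 in wDah at 35 d and 5 d. Its difference was 0.34 ± 0.75 for 35 d minus 5 d and -0.68 ± 0.74 for dFOXO-null minus wDah (SE). bantam had 2.69, 2.23, 2.30 and 2.41 in the same order, with differences of 0.18 ± 0.64 for age and 0.11 ± 0.64 for genotype. miR-100 had 5.09, 4.37, 6.53 and 6.91, and its genotype difference of -1.99 ± 1.08 had an unadjusted p of 0.087 in the edgeR fit.

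The 16 female libraries, 8 per precipitate, were set beside the male ones in a fit over all 32, a comparison added after the male values had been seen. The shift toward star strands in Ago2 against Ago1 was smaller in males than in females for several hairpins. The rows of that fit averaged at least 5 reads over all 32 libraries, so they were not quite those of the male fit: 189 of its 194 miRNA rows and 53 of its 55 hairpins were shared. Of the 55 hairpins 10 differed between the sexes (18.2%; 16 with the replicate block). miR-276a and miR-276b, whose 5p rows hold the same reads, count separately among these 10. In 9 of the 10 the shift toward the less abundant arm was lower in males, and miR-284 shifted less toward its 5p arm in males. In both sexes, full-length reads of that 5p arm were too long to be counted. The less abundant arm was defined on the female Ago1 libraries, which are part of this comparison, so here the definition is not independent of the values compared. The value of miR-311 rests on few reads. miR-311-5p had 0 reads in all 4 male Ago2 libraries at 35 d, where the fitted shift is no bound, and the shifts at 5 d were 0.12 in dFOXO-null and -0.23 in wDah. The Ago2 library was higher in 5 of 8 male pairs with 0.5 reads added, and the shift in females was 2.09. Of the 194 miRNAs 19 differed in their Ago2 to Ago1 ratio (9.79%; 7.59% of the 303 rows of that fit; 34 with the replicate block), 15 with a lower ratio in males and 4 with a higher one.

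The clearest was miR-276a. Its 5p arm had a median of 0.117% of the hairpin in male Ago2 libraries, against 0.862% in female ones, and the lowest female library (0.294%) was above the highest male one (0.271%). The shift was 2.68 smaller in males (± 0.42 SE, adjusted p = 2.93e-05), and that of miR-276b, with the same 5p reads, was 2.71 smaller. let-7-3p had a median of 24.4% in male Ago2 libraries and 45.4% in female ones, and its shift differed by -1.84 ± 0.50 (adjusted p = 0.0126). bantam-5p had 2.52% in male Ago2 and 5.03% in female Ago2 (-1.81 ± 0.46, adjusted p = 0.00734), and miR-998-5p 60.3% in males and 86.2% in females (-2.69 ± 0.83, adjusted p = 0.0224). In Ago1, let-7-3p had a median of 0.835% in males and 0.627% in females, and bantam-5p 0.425% and 0.261%. miR-998-5p had 1.49% and 0.767% there, and miR-276a-5p 0.0742% and 0.0647%. The differences in shift thus include the Ago1 values as well.

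Among single strands, the ratio of miR-2a-2-5p was 2.55 ± 0.52 lower in males (adjusted p = 0.00301), and that of miR-33-3p 2.80 ± 0.60 lower (adjusted p = 0.00532). The strands with a higher ratio in males were miR-312-3p (1.78 ± 0.40, adjusted p = 0.00664), miR-313-3p (2.57 ± 0.62, adjusted p = 0.0104), which was not among the male rows, miR-318-3p (2.86 ± 0.80, adjusted p = 0.0288) and miR-989-3p (3.23 ± 0.76, adjusted p = 0.00964). miR-318 and miR-989 are known as miRNAs of the ovary, a tissue that only the female lysates held. Within males the ratio of miR-989-3p was 2.77 and moved with single libraries. It was 0.54 without the wDah Ago2 library of experiment 2 at 35 d and 1.71 without that of experiment 1 at 5 d. miR-92a, miR-996 and miR-34, in turn, had differences between the sexes of 0.49 ± 0.62, -0.23 ± 0.63 and 0.63 ± 0.62 that did not pass. The female Ago2 libraries were shallower, with 17060 to 195983 miRNA reads, and the part of depth and of tissue in the differences was not tested.

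**Figure D5:**
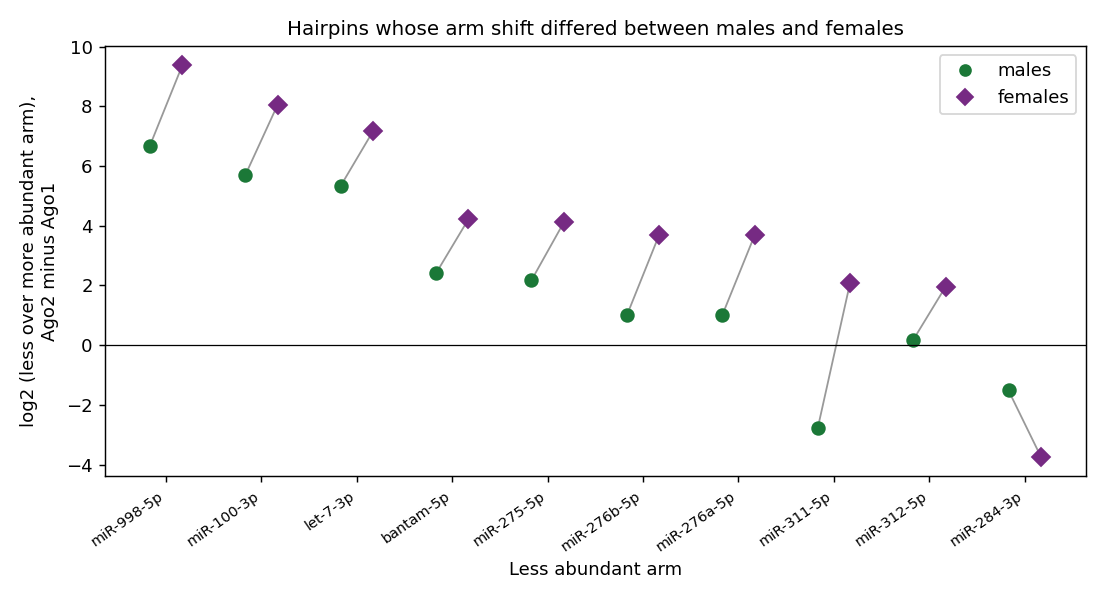
Shift of the log2 ratio of the less to the more abundant arm, Ago2 minus Ago1 (y axis), in males and in females for the 10 hairpins whose shift differed between the sexes in the fit over all 32 libraries. In all but miR-284 the male point lies lower.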

How the data were processed

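The authors removed adapters with Trim Galore, kept reads of up to 25 nt (or, in a second table, of exactly 21 nt), aligned them with Bowtie to a collection of mature miRNAs, star strands, transposons and spike-ins with 1 mismatch and all valid positions reported, and counted them with featureCounts. The deposited values are counts, whole reads per row before normalization. All valid positions were kept, so the 13 tested miRNA rows within 1 mismatch of another over at least 18 nt can share reads. The normalized tables and those of reads mapped to the genome were not used here.

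The test was the quasi-likelihood F test of edgeR 4.0.16 (R 4.3.3), run on counts of rows averaging at least 5 reads in the 16 male libraries, with the total of miRNA reads as library size and 1 mean per group of genotype, age and precipitate. The contrast was the mean of Ago2 minus that of Ago1. Benjamini-Hochberg adjustment ran over all rows of a fit, with 0.05 as the threshold. For the arm ratio each library gave a 5p and a 3p column. SE values were derived from the F statistic. Per-library pair directions used 0.5 added reads. Summed shares were compared by exact permutation in SciPy 1.17.1, and hairpins folded with ViennaRNA 2.7.2. The scripts were tested on simulated data.

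The members, lists and rules were chosen with earlier results of these data known. Strands named are the 10 highest ratios that passed in 8 of 8 pairs (the rule also took the 10 lowest, but 0 passed as lower), both arms of the 12 largest arm shifts, the 10 most abundant strands with their opposite arms, and a few named in the study. Others were named after their values were seen. The labels give old and young flies of 1 genotype and number as siblings, a relation that the replicate block does not use. Same-numbered Ago2 and Ago1 libraries of 1 genotype and age deviated together (correlations 0.509 to 0.534), so the replicate block pairs these. Whether a pair came from 1 lysate is not stated in the sources used here. No pair of replicates was a copy (lowest chi-square per degree of freedom 27.0). Alternatives were other scalings, filters, tools, 21-nt reads, single experiments and leaving out each library.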

Additional observations from a re-analysis of the deposited data

Results flagged for a closer look

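The summed share of less abundant arms in the wDah Ago2 library of experiment 1 at 35 d was 6.52%, apart from the other 7 male Ago2 libraries, of which the next highest had 3.94%. It was the 1 set of 8 values out of 38 examined that held such a library, and chance gives about 1 in 20. Without it the difference between precipitates was 1.26 points (exact permutation test, p = 0.00591).

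The arm shift differed between males and females, by the interaction test in edgeR, for miR-276a (-2.68), miR-276b (-2.71), miR-311 (-4.88), bantam (-1.81), let-7 (-1.84), miR-275 (-1.94), miR-998 (-2.69), miR-312 (-1.79), miR-100 (-2.37) and miR-284 (2.22), in log2 units of males minus females, less over more abundant arm. The miR-311-5p arm had 16 reads in all male Ago2 libraries, 0 of them at 35 d, and 20 in all female ones. Of the strands named by rule, the Ago2 to Ago1 ratio differed by the same test for miR-33-3p (-2.80), miR-2a-2-5p (-2.55), miR-276a-5p and miR-276b-5p (-2.50 each), miR-100-3p (-2.33), let-7-3p (-1.76), bantam-5p (-1.71), miR-988-5p (-1.59), miR-33-5p (-1.34) and miR-8-3p (-0.83).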

How the results depend on the processing

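The number of miRNAs higher in Ago2 was 53 and ranged from 42 to 53 when each library was left out in turn, with 0 lower each time. It was 21 with TMM, 19 with median-of-ratios factors, 20 with DESeq2 and 23 of 141 tested on 21-nt reads, and 76 with the replicate block. The number lower was 81, 114 and 117 with TMM, median-of-ratios and DESeq2, 3 with mapped reads as library size, 3 with the replicate block, and 1 each on 21-nt reads, in experiment 1 alone and in experiment 2 alone. The 53 strands were the same 53 with the replicate block, and the 21 strands higher with TMM were among them. The arm ratio changed in 30 hairpins, in 25 to 34 with each library left out, and in 38 with the replicate block, the 30 among them. On 21-nt reads it changed in 9 of 29 hairpins, 8 of them toward the less abundant arm, where fewer reads were counted and fewer hairpins tested. Counts toward the less abundant arm ran from 24 to 32 with each library left out. The summed share differed by 1.26 to 1.95 points with each library left out (exact permutation, highest p = 0.00591), and by 3.11 points with p = 0.137 on 21-nt reads. For age and genotype 0 passed under each setting run, each library left out included. The difference between the sexes was found for 13 to 24 strands and 7 to 14 hairpins with each library left out, for 34 strands and 16 hairpins with the replicate block, and for 5 of 31 hairpins on 21-nt reads.

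The log2 ratio of miR-100-5p (-1.28), let-7-5p (-1.23), miR-263a-5p (-1.09), miR-33-5p (-0.22), bantam-3p (-1.12), miR-276a-3p (-1.04), miR-276a-5p (-0.032), miR-276b-3p (-1.03), miR-276b-5p (-0.032), miR-34-5p (-1.05), miR-277-3p (-1.15), miR-956-3p (-1.25) and miR-2a-3p (-1.16) was below 0 with TMM, against above 0 with shares of miRNA reads.

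The log2 ratio of miR-998-3p (-1.21), miR-100-5p (-1.58), let-7-5p (-1.55), miR-263a-5p (-1.45), miR-33-5p (-0.58), bantam-3p (-1.53), miR-276a-3p (-1.46), miR-276a-5p (-0.44), miR-276b-3p (-1.45), miR-276b-5p (-0.44), miR-34-5p (-1.41), miR-277-3p (-1.48), miR-956-3p (-1.52) and miR-2a-3p (-1.57) was below 0 with median-of-ratios factors, against above 0 with shares of miRNA reads.

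The log2 ratio of miR-998-3p (-1.21), miR-100-5p (-1.58), let-7-5p (-1.55), miR-263a-5p (-1.45), miR-33-5p (-0.58), bantam-3p (-1.53), miR-276a-3p (-1.46), miR-276a-5p (-0.44), miR-276b-3p (-1.45), miR-276b-5p (-0.44), miR-34-5p (-1.41), miR-277-3p (-1.48), miR-956-3p (-1.52) and miR-2a-3p (-1.57) was below 0 with DESeq2, against above 0 with shares of miRNA reads.

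The log2 ratio of miR-2a-1-5p (-0.057) was below 0 on 21-nt reads, against above 0 with shares of miRNA reads.

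No named arm shift changed direction under any setting. The cause of these changes was not tested. The TMM, median-of-ratios and DESeq2 factors centre on a typical row of the fit, transposon rows included, rather than on the sum of miRNA reads. Ratios of strands with few reads moved with single libraries: miR-980-5p had 0.55 and miR-263a-3p 1.08 without the dFOXO-null Ago2 library of experiment 2 at 35 d, miR-276a-5p lost its call without the same library (0.88, adjusted p = 0.061), miR-184-5p had 4.99 without the wDah Ago2 library of experiment 1 at 35 d, and miR-92a-5p had 7.26 and 7.25 without the dFOXO-null Ago1 libraries of experiment 2 at 5 d and at 35 d.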
